A study of Homo sapiens with 6 samples.

Results

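The genes described here encode the SR proteins and the heterogeneous nuclear ribonucleoproteins (hnRNPs), measured as mRNA in HT1080 cells, an established human fibrosarcoma line, with and without the adhesion receptor GPR56 (gene ADGRG1). They were taken as every protein-coding row of the deposited gene table whose symbol begins with SRSF or HNRNP, which gave 39 genes, 12 SRSF and 27 HNRNP, of 58735 genes in all. Wild-type cells (WT) and cells in which GPR56 had been knocked out by CRISPR-Cas9 (KO) were each represented by 3 mRNA-seq libraries. Both genotypes carry DMSO, a solvent, in their sample names, and no dose or duration is given for it. The design text speaks of knockout lines in the plural, but the labels do not say whether the 3 KO libraries came from 1 clone or several, nor whether the libraries of a genotype came from separate cultures, so p-values measure only the spread between these libraries.

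SR proteins bind exonic enhancer sequences in pre-mRNA through RNA recognition motifs and use arginine- and serine-rich tails, phosphorylated by the SRPK and CLK kinases, to recruit the spliceosome to nearby splice sites. hnRNP proteins coat nascent transcripts, and several of them, with HNRNPA1 as the usual example, repress splice sites that SR proteins activate, so that the balance of both families sets the use of many alternative exons. Both families are expressed in most cell types. Many of these genes control their own level by splicing in an exon or leaving out an intron that exposes the transcript to nonsense-mediated decay. The deposited values are FPKM, fragments scaled to gene length and to library depth, 1 value per gene, and they do not separate such isoforms.

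The deposited values are whole multiples of 1 read, from which 16410352 to 17276269 reads per library were recovered. ADGRG1 itself was at 6.61, 6.07 and 6.87 FPKM in WT and at 2.68, 2.54 and 2.58 in KO (log2 difference −1.06, limma adjusted p = 6.2e-05). Of 13 mesenchymal markers, 8 averaged at least 1 FPKM while LUM and DCN had no read. Their summed level was 654.7 to 659.9 FPKM in WT and 774.7 to 843.7 in KO. None of 6 epithelial, 4 endothelial or 4 hepatocyte markers averaged 1 FPKM, and CDH1, KRT14 and ALB had no read. The 5 haematopoietic markers summed to 0.777 to 1.21 FPKM in WT and 10.0 to 11.6 in KO, with PTPRC at 0 reads and LAPTM5 as the member above 1 FPKM. The part of these marker differences in the results below was not tested.

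In bulk RNA, fewer cells with a transcript and less of it per cell cannot be told apart. Of the 39 genes, 33 had a mean of at least 1 FPKM over the 6 libraries and were tested, 11 SRSF and 22 HNRNP. The other 6 were near or at 0 in both genotypes. HNRNPCL1, HNRNPCL2, HNRNPCL3 and HNRNPCL4, relatives of HNRNPC, had no read in any library, which allows a level of up to 0.157 to 0.205 FPKM for a count of 3 reads, counting error only. SRSF12 had no read in WT and was at 0.0128, 0 and 0.0397 FPKM in KO. The readthrough gene HNRNPUL2-BSCL2 had 3 reads, all in WT library 2. It shares 59.8% of its exonic length with HNRNPUL2 and 40.2% with BSCL2, both on its own strand. Its low count may therefore come from how shared reads were assigned, and its level cannot be read from it. The tested set includes HNRNPA1P48 and HNRNPA1L2, copies of HNRNPA1 that the table lists as protein-coding, whose reads may be exchanged with those of HNRNPA1.

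Among the tested genes HNRNPA1 had the highest WT level, 188.7 ± 0.87 FPKM (SD, n = 3), followed by HNRNPK at 152.2 ± 3.99 and HNRNPAB at 138.5 ± 29.4. The spread of HNRNPAB spans HNRNPK, so the order of that pair is not resolved. HNRNPF (115.3 FPKM), HNRNPA2B1 (108.9) and HNRNPC (103.2) came next, and SRSF2 led the SR proteins at 89.1 ± 16.4. SRSF3 stood at 67.2 ± 7.29, SRSF7 at 52.8 ± 1.56, SRSF6 at 47.3 ± 4.69 and SRSF1 at 44.0 ± 8.53, and the spreads of SRSF6 and SRSF1 overlap. HNRNPA1L2 was lowest, at 3.54 ± 0.46. FPKM here divides by the length of all annotated exons of a gene, and HNRNPU, for which these add up to 22512 bases, ranks higher when the longest coding transcript is used instead.

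**Figure D1:**
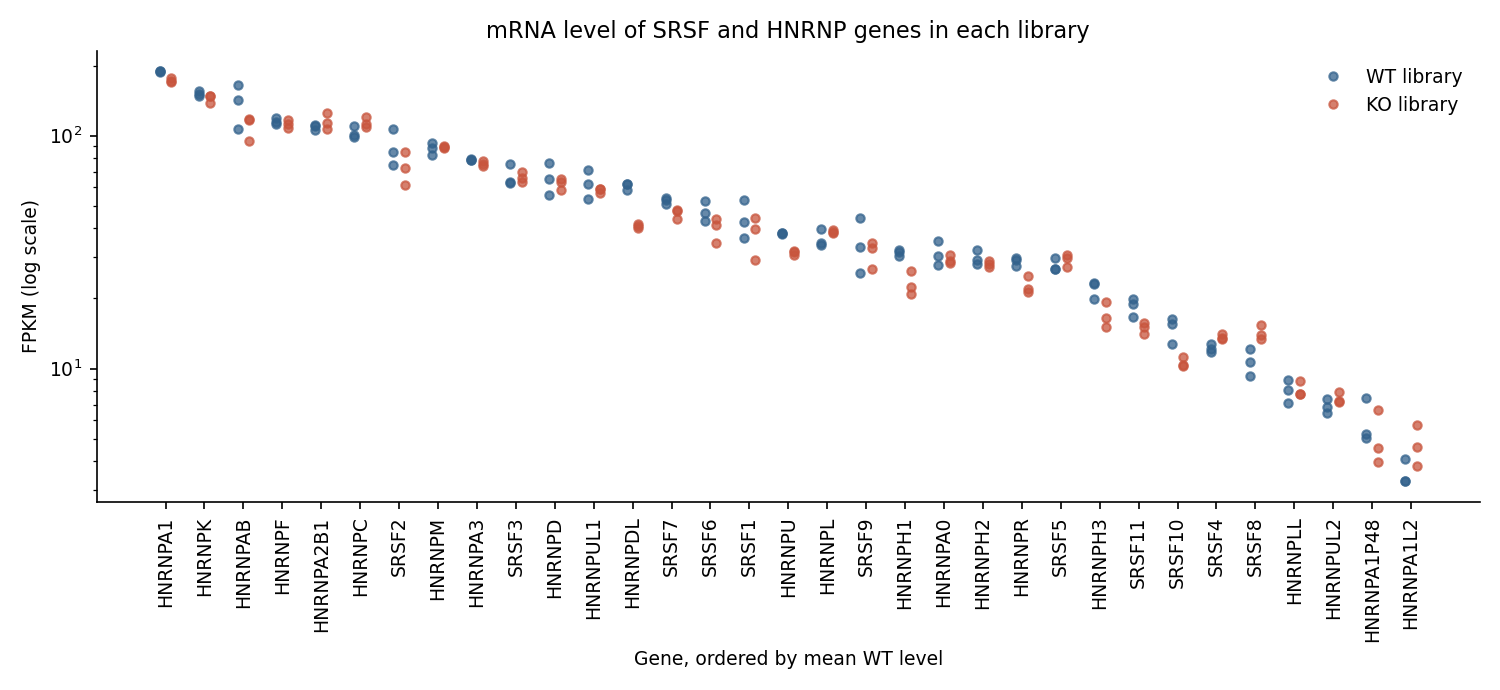
Level of each of the 33 tested SRSF and HNRNP genes in FPKM (log scale) in the 3 WT libraries (blue) and 3 KO libraries (red), with genes ordered from left to right by mean WT level. HNRNPA1 is highest at 188.7 FPKM and HNRNPA1L2 lowest at 3.54 FPKM in WT, and for most genes the points of both genotypes lie close together.

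With limma on log2(FPKM + 1) and Benjamini-Hochberg adjustment over all 12000 tested genes (threshold 0.05), 1 of the 33 genes rose in KO, SRSF8, and 8 fell: HNRNPDL, SRSF10, HNRNPH1, HNRNPH3, HNRNPR, SRSF11, HNRNPU and SRSF7. The share called among all tested genes was 43.4%, 21.0% higher and 22.4% lower, against 27.3% of the 33. The share lower, 24.2%, was near that of all genes, and the share higher, 3.03%, was below it. By family, 1 of 11 SRSF genes rose and 3 fell, and 5 of 22 HNRNP genes fell and none rose (11 of the 33 had an unadjusted limma p under 0.05). The median log2 difference, KO minus WT, was −0.18 over SRSF genes and −0.07 over HNRNP genes, and −0.01 over all tested genes. Without WT library 1 or KO library 3 no SRSF gene was called higher and 1 was called lower, 1 SRSF gene was called lower without WT library 2 or without KO library 2, and 2 SRSF genes and HNRNPL were called higher without WT library 3. Without KO library 3 HNRNPA1L2 was called higher. The difference was under 1.5-fold for each of the 33 genes, a size reached by 21.3% of all tested genes.

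The base composition of the transcripts moved with this comparison. Within each library, the deviation of genes from their mean over libraries followed GC content, with Spearman correlations across 11992 genes, which are not independent replicates, of −0.62 to −0.01 in WT and 0.23 to 0.46 in KO. Of the 33 genes, 24 have a longest transcript with GC under 45%, and the median is 41.3% against 48.3% over all tested genes. Tested genes below that limit, 4484 in number, had a median log2 difference of −0.19, and 39.3% of them were called lower. All 8 genes called lower lie between 35.3% and 44.6% GC. Values below called trend-corrected were obtained after a smooth trend on GC content and length had been removed from every library. With that correction 7 of the 33 genes were past the threshold as higher and 4 as lower, beside 43.6% of all genes called, 20.7% higher and 22.9% lower, and the median of the 33 was 0.02. The part of GC content in the uncorrected differences was not tested beyond this.

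HNRNPDL, SRSF10 and SRSF8 were past the threshold in the same direction with and without the trend correction, and the 250 bases before their RefSeq transcription starts (GRCh38.p14, read along the gene's strand) are shown for that reason. Capitals mark matches on either strand to any of 6 short promoter motifs, namely the ETS motif CCGGAAG, the GC box GGGCGG, the CCAAT box, the E-box CACGTG, the NRF1 motif and the TATA box TATAAA, where matches of different motifs may overlap. The windows lie at chr4:82430463-82430712 (minus strand, the farther upstream of a pair of starts), chr1:23980328-23980577 (minus strand) and chr11:95066669-95066918 (plus strand).
HNRNPDL: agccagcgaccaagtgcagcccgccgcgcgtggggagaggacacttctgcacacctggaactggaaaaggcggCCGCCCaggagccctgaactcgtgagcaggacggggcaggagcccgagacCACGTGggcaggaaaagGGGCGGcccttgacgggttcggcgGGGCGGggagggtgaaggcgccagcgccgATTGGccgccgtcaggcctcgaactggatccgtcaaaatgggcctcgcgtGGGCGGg
SRSF10: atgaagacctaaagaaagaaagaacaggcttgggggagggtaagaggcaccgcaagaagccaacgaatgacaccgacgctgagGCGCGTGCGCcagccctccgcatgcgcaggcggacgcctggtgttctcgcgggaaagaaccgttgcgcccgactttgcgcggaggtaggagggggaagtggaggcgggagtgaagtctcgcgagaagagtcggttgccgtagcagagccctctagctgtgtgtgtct
SRSF8: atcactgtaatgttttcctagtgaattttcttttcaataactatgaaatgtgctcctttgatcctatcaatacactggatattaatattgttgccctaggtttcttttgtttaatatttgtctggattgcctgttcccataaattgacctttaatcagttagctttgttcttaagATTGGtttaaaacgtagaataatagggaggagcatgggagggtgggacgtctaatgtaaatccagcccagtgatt

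The HNRNPDL window holds several GC boxes, a CCAAT box read on the opposite strand as ATTGG, and an E-box. The SRSF10 window holds an NRF1 match, and the SRSF8 window a CCAAT match alone. RefSeq promoters matched 35 of the 39 genes and 30 of the 33 tested. Over the 44 windows of the 30 tested genes the median GC content was 64.8%, against 58% over 35116 windows of all genes. The median number of CpG dinucleotides was 24 against 11 over the same sets. Both windows listed for SRSF8 have 2 CpG and 33.6% to 35.2% GC, the lowest among the windows of all 35 genes with an entry. HNRNPCL4, which had no read, came next with 3 CpG and 38.8% GC, and among tested genes the lowest other GC content was 47.6%, in HNRNPH2. GC boxes matched 20 of the 30 tested genes (66.7%, against 46.2% of all 27305 genes with an entry), CCAAT boxes 18 (60%, against 37.0%), E-boxes 6 (20%, against 7.73%), the NRF1 motif 6 (20%, against 6.20%), TATA boxes 6 (20%, against 13.0%) and the ETS motif 5 (16.7%, against 10.2%). The 27305 genes were not limited to those tested here, and the windows of the tested members are richer in GC and CpG. A gene counted as matched through any of its windows, 44 for the 30 tested members and 35116 for all genes. The shares are therefore not of like sets. These are matches of letters within the window and are not measurements of binding.

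HNRNPDL (chr4:82422564-82430408, minus strand), an hnRNP D-like protein that binds AU-rich RNA, had the smallest adjusted p of the 33 genes. It was at 62.0, 61.8 and 58.7 FPKM in the WT libraries and at 40.9, 41.6 and 40.2 in the KO libraries. The lowest WT library stood well above the highest KO library, and each genotype was tightly grouped. The KO mean was 67.3% of WT, a log2 difference of −0.56 (SE 0.05, limma adjusted p = 0.00035). It stayed past the threshold in 14 of 14 alternative analyses, among them the trend correction (−0.53, limma adjusted p = 0.000223).

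The nearest family member on the chromosome is its paralogue HNRNPD (AUF1, which regulates the stability of AU-rich mRNAs), at chr4:82352498-82374503. HNRNPD was at 65.4, 55.5 and 76.1 FPKM in WT and at 63.4, 65.1 and 58.7 in KO. The groups overlapped, and the KO libraries lay inside the WT range (log2 difference −0.06, 95% interval −0.33 to 0.21, limma adjusted p = 0.694). The trend-corrected value was 0.28, of the opposite sign and again not past the threshold (limma adjusted p = 0.203). The ratio of HNRNPDL to HNRNPD, which was chosen after the values were seen, came to 0.947, 1.11 and 0.771 for the WT libraries and 0.646, 0.640 and 0.684 for the KO libraries. All KO ratios were below all WT ratios, a difference of −0.51 on the log2 scale (exact two-sided permutation p = 0.1, the smallest that 3 against 3 allows), and −0.80 after the trend correction.

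SRSF10 (chr1:23964804-23980927, minus strand), an SR protein that when dephosphorylated acts as a splicing repressor in heat shock and mitosis, was at 15.5, 16.4 and 12.7 FPKM in WT and 10.2, 10.4 and 11.2 in KO. The groups did not overlap, with WT library 3 the lowest of its group. The KO mean was 71.3% of WT (log2 difference −0.45, SE 0.10, limma adjusted p = 0.00886). The trend-corrected difference was smaller, −0.20, and also past the threshold (limma adjusted p = 0.024).

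SRSF11 (p54, chr1:70205682-70253052) was at 19.0, 19.8 and 16.6 FPKM in WT and 15.6, 14.0 and 15.1 in KO. The groups did not overlap, the gap being about 1 FPKM. Its log2 difference was −0.29 (SE 0.08, limma adjusted p = 0.024), and after the trend correction 0.05 with the sign turned (limma adjusted p = 0.467). The call was also lost without WT library 1 or 2 or KO library 2 or 3 (limma adjusted p = 0.0856, 0.0600, 0.0916 and 0.0547).

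SRSF7 (9G8, also an adaptor for mRNA export, chr2:38743599-38751494) was at 53.0, 54.2 and 51.1 FPKM in WT and 43.8, 48.1 and 47.4 in KO. The groups were separate, and KO library 1 was the lowest. Its log2 difference of −0.18 (SE 0.06) sat at the threshold (limma adjusted p = 0.0494), and the call was lost without any 1 of the libraries other than WT library 3 (limma adjusted p = 0.0878 to 0.146) and after the trend correction (−0.03, limma adjusted p = 0.648).

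SRSF8 (chr11:95067197-95071224, plus strand), a close relative of SRSF2 that arose as a retrotransposed copy, moved the other way. It was at 10.7, 12.1 and 9.31 FPKM in WT and 13.4, 13.9 and 15.4 in KO. Every KO library was above every WT library. The KO mean was 133% of WT (log2 difference 0.39, SE 0.10, limma adjusted p = 0.0172), and the trend-corrected value was close to it (0.43, limma adjusted p = 0.00201). The call was lost without WT library 1 (limma adjusted p = 0.0542) or without KO library 3 (limma adjusted p = 0.0550). It rests on 624 to 1031 reads per library, and the sequence it shares with SRSF2 was not separated here.

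The remaining lower calls were hnRNPs. HNRNPH1 (chr5:179614178-179634784), which binds G-rich tracts, was at 31.5, 32.2 and 30.3 FPKM in WT and 26.3, 22.4 and 20.9 in KO. The WT libraries were close together and all above the more widely spread KO libraries. The KO mean was 74.1% of WT (log2 difference −0.42, SE 0.09, limma adjusted p = 0.00769), and the trend-corrected value was −0.08 (limma adjusted p = 0.538). Its relative HNRNPH3 (chr10:68331174-68343191) was at 23.1, 19.96 and 23.4 FPKM in WT and 19.3, 16.5 and 15.1 in KO. WT library 2 and KO library 1 were separated by less than 1 FPKM. The log2 difference was −0.37 (SE 0.10, limma adjusted p = 0.0247) and trend-corrected −0.29 (limma adjusted p = 0.12). Without WT library 1 or 3 or KO library 2 or 3 the call was lost (limma adjusted p = 0.0849, 0.0637, 0.0786 and 0.0714). A further member of that subfamily, HNRNPH2, which is X-linked, was at 29.9 ± 2.10 FPKM in WT and 28.0 ± 0.81 in KO and was not past the threshold (log2 difference −0.09, limma adjusted p = 0.322, and 0.015 after the trend correction).

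HNRNPR (chr1:23303771-23344336), a relative of SYNCRIP involved in mRNA transport and stability, was at 29.7, 27.6 and 29.3 FPKM in WT and 24.9, 21.3 and 21.9 in KO. The groups did not overlap. Its log2 difference was −0.34 (SE 0.07, limma adjusted p = 0.01) and, after the trend correction, 0.03 (limma adjusted p = 0.814). HNRNPU (SAF-A, a nuclear scaffold protein that binds chromatin and RNA, chr1:244840638-244864560) was at 38.4, 37.7 and 38.0 FPKM in WT and 31.9, 30.7 and 31.6 in KO. Both groups were tight and well separated, with at least 11810 reads in each library. The log2 difference was −0.27 (SE 0.05, limma adjusted p = 0.00574), and after the trend correction it was 0.04, of the opposite sign and not past the threshold (limma adjusted p = 0.563).

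**Figure D2:**
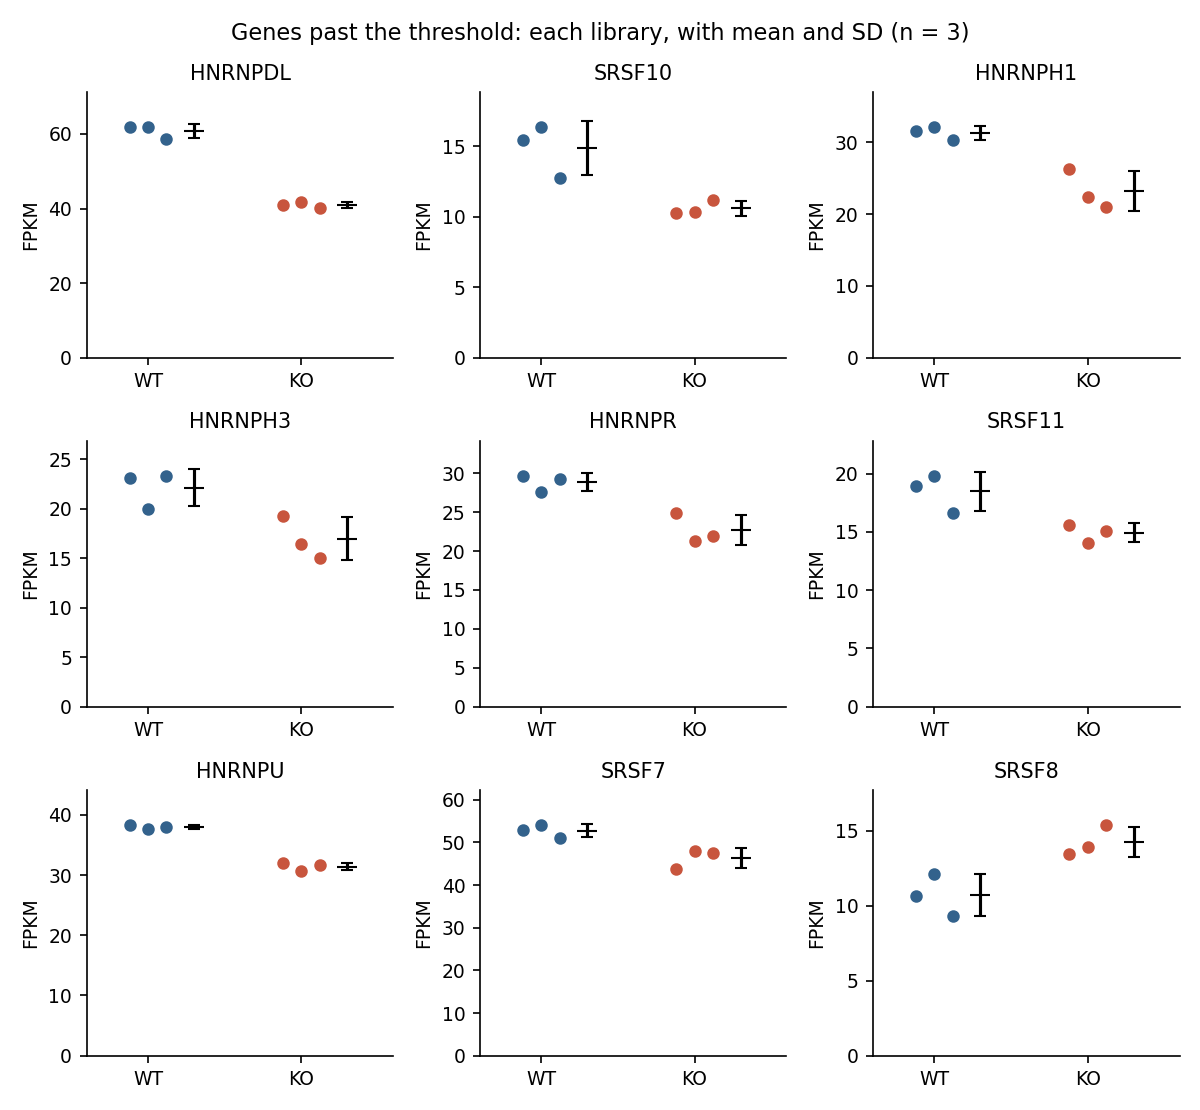
FPKM in each WT library (blue) and KO library (red) for the 8 genes called lower and the 1 called higher in KO, with mean and SD (n = 3) beside the points and axes that start at 0. In all 9 genes the groups do not overlap, and the widest separation is that of HNRNPDL, with means of 60.8 and 40.9 FPKM. The 9 genes were picked by their adjusted p in these same libraries, which favours separate groups. Among all tested genes 54.7% had groups that do not overlap.

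The SR proteins and hnRNPs most often studied were not past the threshold. SRSF1 (SF2/ASF, the founding SR protein) was at 42.7, 53.1 and 36.2 FPKM in WT and 29.3, 39.8 and 44.3 in KO. The groups overlapped widely, KO library 3 being above 2 of the 3 WT libraries. The log2 difference was −0.22 (95% interval −0.65 to 0.21, limma adjusted p = 0.373), an interval that leaves room for changes in both directions, and the trend-corrected value was −0.07. SRSF2 (SC35, a marker of nuclear speckles) was at 85.5, 107.1 and 74.9 FPKM in WT and 61.2, 72.5 and 85.0 in KO, again overlapping (log2 difference −0.28, 95% interval −0.66 to 0.09, limma adjusted p = 0.188, and −0.31 after the trend correction, also not past the threshold). For SRSF3, the smallest SR protein, the WT values were 63.5, 75.6 and 62.5 FPKM and the KO values 63.5, 65.9 and 70.2. The means were nearly equal, with a log2 difference of −0.01 (95% interval −0.22 to 0.20, limma adjusted p = 0.937), but after the trend correction SRSF3 was past the threshold as higher (0.24, limma adjusted p = 0.0139).

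HNRNPA1 was at 187.7, 189.2 and 189.2 FPKM in WT and 171.4, 176.9 and 169.9 in KO. The groups did not overlap, yet the difference was small, the KO mean being 91.5% of WT (log2 difference −0.13, 95% interval −0.26 to 0.0038, limma adjusted p = 0.105). With quantile normalization it was past the threshold (−0.23, limma adjusted p = 0.0178), and with the trend correction the value was −0.04. HNRNPK, a poly(C)-binding protein, was at 151.7, 156.4 and 148.5 FPKM in WT and 138.2, 148.1 and 147.9 in KO. The groups touched without overlapping, KO libraries 2 and 3 lying less than 1 FPKM under WT library 3 (log2 difference −0.07, 95% interval −0.21 to 0.07, limma adjusted p = 0.377, and 0.05 after the trend correction). The ratio of SRSF1 to HNRNPA1, a pair with opposing effects on splice site choice, came to 0.228, 0.281 and 0.191 for the WT libraries and 0.171, 0.225 and 0.261 for the KO libraries. The ratios overlapped (exact two-sided permutation p = 0.7, where 0.1 is the smallest possible).

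HNRNPA2B1, a relative of HNRNPA1 with roles in mRNA transport, was at 109.9, 105.4 and 111.3 FPKM in WT and 125.5, 113.9 and 107.2 in KO. KO library 3 fell inside the WT range (log2 difference 0.08, 95% interval −0.09 to 0.26, limma adjusted p = 0.407). HNRNPC, which binds uridine tracts and keeps cryptic exons out of transcripts, was at 100.8, 110.0 and 98.8 FPKM in WT and 108.6, 112.8 and 119.8 in KO. The groups overlapped only where KO library 1 lay below WT library 2 (log2 difference 0.14, 95% interval −0.02 to 0.30, limma adjusted p = 0.148). Both were past the threshold as higher after the trend correction, HNRNPA2B1 at 0.32 (limma adjusted p = 0.0294) and HNRNPC at 0.39 (limma adjusted p = 0.00104).

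Among the other 17 tested genes, none was past the threshold, and across all 24 genes of that kind the KO mean lay between 79.4% and 133% of WT. SRSF4, a large SR protein, averaged 12.2 ± 0.51 FPKM in WT and 13.7 ± 0.35 in KO without overlap (log2 difference 0.15, limma adjusted p = 0.0666). SRSF6 averaged 47.3 ± 4.69 and 39.8 ± 4.77 (−0.25, limma adjusted p = 0.104, and −0.03 after the trend correction). With quantile normalization SRSF6 was past the threshold as lower (−0.31, limma adjusted p = 0.0469). SRSF9 varied most among the SR genes in WT, at 34.4 ± 9.31 against 31.5 ± 4.16 FPKM in KO. HNRNPAB, which binds single-stranded nucleic acids, was at 142.6, 107.2 and 165.6 FPKM in WT and 117.7, 117.2 and 95.1 in KO, so WT library 2 sat within the KO range (−0.31, limma adjusted p = 0.163). Without that library HNRNPAB was past the threshold (−0.49, limma adjusted p = 0.0215). The trend correction added HNRNPAB (−0.45, limma adjusted p = 0.0391) and HNRNPUL1 (−0.21, limma adjusted p = 0.0438) to the lower calls, and SRSF4 (0.36), HNRNPA3 (0.25) and HNRNPLL (0.27) to the higher ones, with limma adjusted p = 0.00952, 0.0214 and 0.00369.

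**Figure D3:**
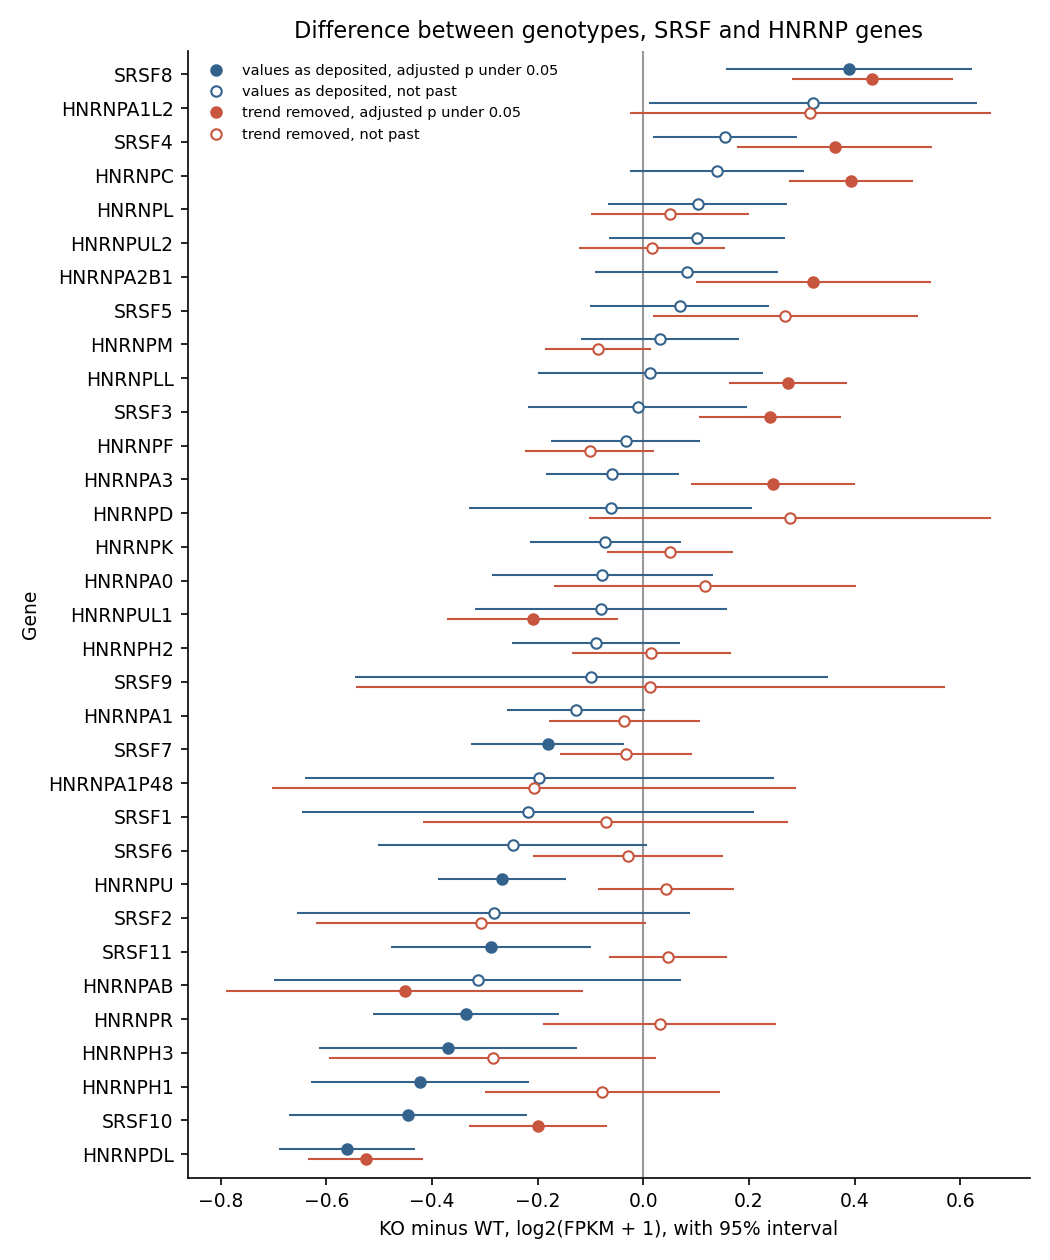
Difference of KO minus WT on the log2(FPKM + 1) scale for the 33 tested genes, with 95% intervals, for the deposited values (blue) and after removal of the GC and length trend (red, labelled trend removed), where filled points are past the adjusted p threshold of 0.05. SRSF8 at the top and HNRNPDL and SRSF10 at the bottom are filled in both colours, while HNRNPH1, HNRNPH3, HNRNPR, HNRNPU, SRSF7 and SRSF11 lose their fill when the trend is removed.

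Set beside genes of the same base composition, several of the lower calls lay close to the level of their class. Tested genes with 35% to 37.5% GC had a median log2 difference of −0.37, and HNRNPR (35.3% GC), HNRNPH1 (36.3%) and SRSF11 (36.6%) were at −0.34, −0.42 and −0.29. For 37.5% to 40% GC the median was −0.27, the value of HNRNPU (37.9%), while SRSF10 (39.8%) was lower at −0.45. For 42.5% to 45% GC the median was −0.06, and HNRNPDL (44.6%, −0.56) and SRSF8 (43.9%, 0.39) lay on either side of it, with HNRNPH3 (43.3%, −0.37) also below it. SRSF7 (41.3%) was at −0.18, near the median of −0.16 for 40% to 42.5% GC.

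**Figure D4:**
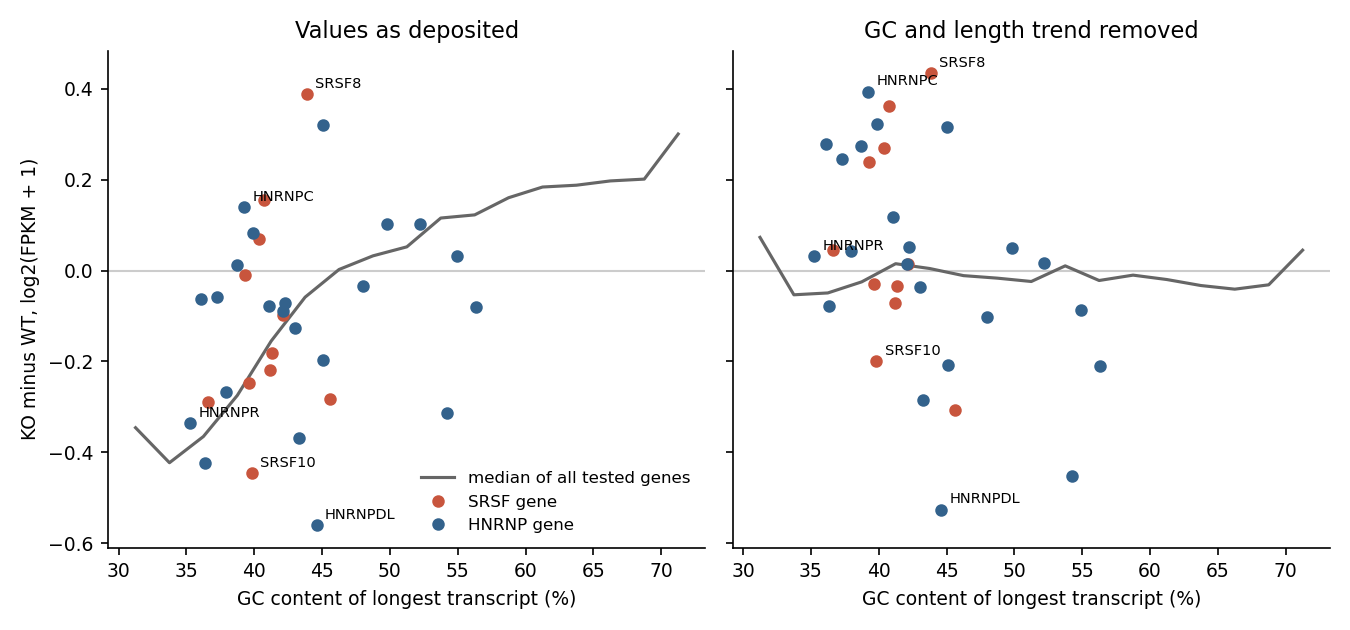
Difference of KO minus WT (log2) against the GC content in percent of each gene's longest transcript, for SRSF genes (red) and HNRNP genes (blue), with the median of all tested genes per GC bin as a line, for deposited values at the left and after trend removal at the right. At the left the line runs from −0.37 at 35% to 37.5% GC to 0.18 at 60% to 62.5%, and HNRNPDL and SRSF8 stand off it in both panels.

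Summed over the family, SRSF genes came to 408.4, 455.2 and 393.2 FPKM in WT and 349.4, 383.7 and 400.0 in KO, and the groups overlapped because KO library 3 exceeded WT library 3. HNRNP genes came to 1411, 1346 and 1455 FPKM in WT and 1328, 1325 and 1283 in KO, without overlap. With HNRNPA1 left out the groups all but touched, the lowest WT sum being 1157.02 FPKM and the highest KO sum 1156.94. The KO to WT ratio of the sums over all members was 0.901 for SRSF and 0.935 for HNRNP genes. These sums were taken without the trend correction, after which the median log2 difference of HNRNP genes was 0.02. SRSF genes held 0.179% to 0.226% of the recovered reads of a library and HNRNP genes 0.772% to 0.890%.

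WT library 2 was the highest WT library for 8 of 11 SRSF genes and for 5 of 22 HNRNP genes, and WT library 3 for 3 SRSF and 12 HNRNP genes. The median coefficient of variation in WT was 10.9% for SRSF and 6.27% for HNRNP genes, and in KO it was 5.85% and 4.51%. WT library 2 had the strongest negative GC trend of the WT libraries and WT library 3 the weakest (Spearman −0.62 and −0.01). In all, 13 of the 33 genes (39.4%) had groups that did not overlap, against 54.7% of all tested genes.

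Chromosomal neighbours of several genes differed together between the genotypes, and several of these medians were smaller after the trend correction. The tested genes within 10 Mb of HNRNPDL, 59 in number, had a median log2 difference of −0.26, and of −0.09 after the trend correction, beside −0.56 and −0.53 for HNRNPDL itself. The median around HNRNPD was likewise −0.26, and −0.10 after the correction. Around SRSF11 the median went from −0.25 to −0.06 with the correction, around HNRNPU from −0.17 to −0.09 and around HNRNPK from −0.22 to −0.19. SRSF8 rose while its 47 neighbours had a median of −0.17, or −0.03 corrected. SRSF10, HNRNPR and HNRNPH1 fell while their neighbours' medians were 0.11, 0.09 and 0.08, or 0.02, 0.0098 and 0.02 corrected. HNRNPA1P48 on 16q had neighbours at −0.34, or −0.35 corrected, beside its own −0.20. HNRNPA2B1 on 7p had neighbours at 0.17, or 0.26 corrected, beside its own 0.08 and 0.32. HNRNPA1L2 on chromosome 13 had neighbours at 0.20, or 0.38 corrected, beside its own 0.32 in both analyses. The part of chromosome copy number in these values was not tested.

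**Figure D5:**
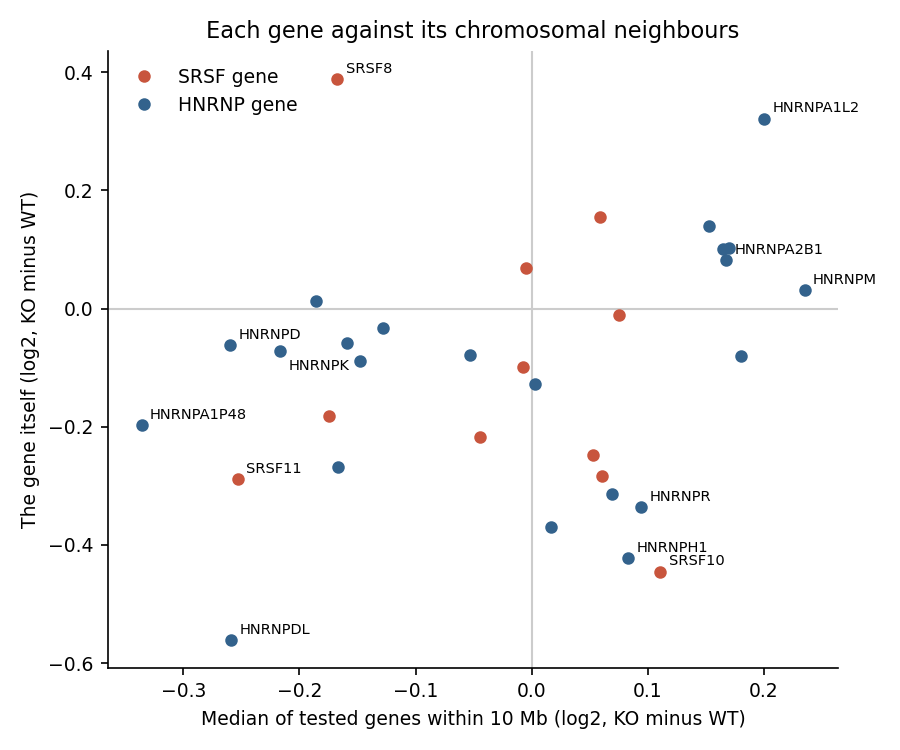
Difference of KO minus WT of each tested SRSF gene (red) and HNRNP gene (blue) against the median difference of the tested genes within 10 Mb, both on the log2 scale and without the trend correction. HNRNPDL lies below both zero lines with its neighbours at −0.26, whereas SRSF8 is at 0.39 above neighbours at −0.17 and SRSF10 at −0.45 below neighbours at 0.11.

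Factors that act with these families were counted over 6 companion lists, to be read against the 43.4% of all tested genes that were called, 21.0% higher and 22.4% lower. Of 24 SR-related proteins, which carry arginine- and serine-rich domains without the SRSF name, 23 were tested, 10 fell and none rose, with a median log2 difference of −0.12. The share called, 43.5%, was near that of all genes, and the share lower was above the 22.4% of all genes and near the 39.3% of genes under 45% GC. The list itself was not limited by GC content. After the trend correction the share lower was again 43.5%, beside 22.9% of genes under 45% GC and 22.9% of all genes. The counts were again 10 and 0, but not of the same genes. SREK1, PNN, RSRC1 and RSRC2 were no longer called, and SRRM2, SCAF1, SCAF4 and SCAF8 were called lower instead. Without the correction, 6 were called when WT library 1 or KO library 2 was left out. The 4 with the smallest adjusted p were LUC7L3, a U1 snRNP-associated protein (16.2 ± 0.77 to 10.5 ± 0.82 FPKM), BCLAF1 (20.1 ± 1.84 to 12.8 ± 1.19), SREK1 (4.33 ± 0.46 to 2.67 ± 0.18) and SCAF11 (6.54 ± 0.84 to 4.03 ± 0.32). All 4 have a GC content under 45%, and their log2 differences of −0.58, −0.61, −0.53 and −0.58 became −0.27, −0.27, −0.16 and −0.28 after the trend correction, SREK1 no longer being past the threshold (limma adjusted p = 0.0628). Of 15 tested kinases, importers and arginine methyltransferases of SR proteins and hnRNPs (17 listed), 5 fell and 1 rose, 40.0% in all (6 and 1 after the trend correction). The kinase SRPK1, which phosphorylates SR proteins in the cytoplasm, fell from 24.1 ± 2.73 to 16.8 ± 0.50 FPKM (limma adjusted p = 0.00398, and 0.00118 after the trend correction), and the nuclear kinase CLK2 rose from 8.66 ± 0.41 to 12.9 ± 0.79 (limma adjusted p = 0.00104, and 0.00123 after the trend correction). TNPO1, the importin of HNRNPA1 and other hnRNPs, fell from 30.3 ± 4.0 to 17.3 ± 0.50 FPKM (limma adjusted p = 0.00093), and PRMT3, an arginine methyltransferase, from 10.3 ± 1.35 to 6.46 ± 0.42. Both stayed past the threshold after the trend correction, with log2 differences of −0.44 in place of −0.77 for TNPO1 and −0.24 in place of −0.60 for PRMT3.

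The list named hnRNP proteins under other symbols (20 listed) is a loose one, and the name does not hold strictly for each member. Of its 17 tested genes, 6 fell and 3 rose, 52.9% in all (4 and 2 after the trend correction), and 5 were called in all without WT library 1. FUBP1 fell from 25.2 ± 1.22 to 17.3 ± 0.40 FPKM, EWSR1 from 31.0 ± 1.32 to 22.4 ± 1.02, SYNCRIP, the closest relative of HNRNPR, from 57.0 ± 5.26 to 38.8 ± 2.26, and TARDBP (TDP-43) from 21.7 ± 0.14 to 17.4 ± 0.46. After the trend correction TARDBP was no longer past the threshold (−0.09 in place of −0.30, limma adjusted p = 0.285), and SYNCRIP was past it with −0.20 in place of −0.54. A list of 22 further splicing regulators was called cell-type-restricted, a label that does not hold for each of them. Of these, 9 were tested, 5 fell and 2 rose (4 and 2 after the trend correction). The share called among these few genes, 77.8%, was above that of all genes. MBNL1, a muscleblind protein, fell from 23.4 ± 2.98 to 12.1 ± 0.88 FPKM, QKI from 8.39 ± 0.95 to 5.24 ± 0.42 and CELF1 from 20.9 ± 0.11 to 16.4 ± 0.78, while CELF2 rose from 0.543 ± 0.099 to 3.02 ± 0.31, a gene that passed the filter on low values only through its KO level. MBNL2, a paralogue of MBNL1, also rose, from 5.15 to 8.44 FPKM (log2 difference 0.62, limma adjusted p = 0.0036). Without the trend correction, the tested genes within 10 Mb had a median log2 difference of 0.34 around MBNL2 and of −0.29 around MBNL1. The part of chromosome copy number in both was not tested. After the trend correction MBNL2 was at 0.92 (limma adjusted p = 0.000129). QKI was at −0.30 after the trend correction in place of −0.59, again past the threshold.

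Core snRNP proteins, the constitutive parts of the spliceosome, gave 9 higher and 4 lower of 31 tested, with a median of 0.06 (7 and 3 after the trend correction), and the share called, 41.9%, was near that of all genes. Without WT library 1, KO library 2 or KO library 3 the calls of that list numbered 7, 6 and 7. SNRPB, an Sm ring protein, rose from 178.7 ± 12.1 to 233.1 ± 1.29 FPKM and PRPF6 from 48.5 ± 2.99 to 63.0 ± 2.54, and both stayed past the threshold after the trend correction with smaller log2 differences, 0.20 in place of 0.38 and of 0.37. SF3B3 fell from 28.4 ± 0.99 to 20.5 ± 1.49 FPKM and SF3B6 from 81.4 ± 3.13 to 61.1 ± 5.11. Of 15 nonsense-mediated decay factors, 8 fell and 1 rose, 60.0% in all (10 and 1 after the trend correction). UPF3A on chromosome 13 rose from 7.24 ± 0.44 to 13.5 ± 0.83 FPKM. Its paralogue UPF3B fell from 5.08 ± 0.33 to 3.21 ± 0.43, UPF2 from 7.62 ± 0.15 to 4.34 ± 0.37, and MAGOHB, an exon junction component, from 4.41 ± 0.09 to 3.06 ± 0.07. Without the trend correction, the tested genes within 10 Mb had a median log2 difference of 0.39 around UPF3A and of −0.05 around UPF3B. The part of chromosome copy number in these values was again not tested. After the trend correction MAGOHB was no longer past the threshold (−0.06 in place of −0.42, limma adjusted p = 0.534).

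An annotated transcript of the nonsense-mediated decay type exists for 11 of the 11 tested SRSF genes and 13 of the 22 HNRNP genes (GENCODE 29), together 72.7% against 43.9% of 10257 tested protein-coding genes. A transcript with a retained intron exists for 66.7%, against 58.6%. HNRNPU has 9 transcripts of the decay type, SRSF7 has 6, and HNRNPDL and HNRNPH1 have 4 each. Whether any of them contributed reads was not tested, since the table holds 1 value per gene.

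Some members share sequence or position with other genes. SRSF2 has 36.7% of its exonic length covered by MFSD11 on the opposite strand (2.32 FPKM) and SRSF9 46.2% by GATC (5.48 FPKM), and the strand setting of the counting is not given in the sources used here, so their values are uncertain to that extent. SRSF1 overlaps a row on its own strand, AC015813.2, over 56.6% of its exonic length, and that row had no read. HNRNPUL2 shares 44.1% of its exonic length with HNRNPUL2-BSCL2 on its own strand. How reads shared between rows were assigned is not given either, so the values of SRSF1 and HNRNPUL2 may lack such reads. The table also lists 126 SRSF or HNRNP rows of other biotypes, most of them pseudogenes, of which 77 had no read. The 74 pseudogene rows of HNRNPA1 held 0.835% to 1.06% of the reads of gene and pseudogenes together, and the corresponding shares were at most 1.48% for HNRNPA3, 2.02% for HNRNPC and 1.83% for HNRNPK. Of these rows 9 averaged at least 1 FPKM and none was past the threshold with limma (0 at an unadjusted p under 0.05, and 0 in the alternative analyses).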

How the data were processed

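Gene-level mRNA-seq values of 3 WT and 3 KO libraries of HT1080 cells were used. The authors deposited FPKM for 58735 genes in 1 table, and neither the file headers nor the labels name an aligner or counter. Per the submitters' processing notes the builds were GRCm38 and mm10, which are mouse builds, but all 58735 gene positions in the deposited table equal those of the human annotation GENCODE 29 (GRCh38), which was used for coordinates, GC content and overlaps. FPKM times gene length stepped in whole reads within 0.02 of a read, so read numbers were recovered.

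Differences were tested with limma 3.58.1 in R 4.3.3 on log2(FPKM + 1), two-sided, keeping the 12000 genes whose mean FPKM reached 1, with genotype as the only term, all 6 libraries and Benjamini-Hochberg adjustment over all tested genes. Fold changes on this scale understate those of low genes. The trend correction removed from each library natural splines on the GC content of the longest transcript and on the log2 length of all annotated exons. Ratios of FPKM were compared with exact permutation tests, and sums are given without a test. The limma test was checked on simulated reads with 200 changed genes. That simulation held no GC trend, so it does not cover the trend described above, and the permutation tests were not part of it. Planned count-model analyses were not run because the deposited unit is FPKM, and limma-voom on recovered reads was run in their place.

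The genes, lists and tests were chosen with earlier results of these data known. Values in every library were given for up to 8 higher and 8 lower genes past the threshold by smallest adjusted p, for SRSF1, SRSF2, SRSF3, HNRNPA1, HNRNPA2B1, HNRNPC and HNRNPK, and for up to 4 genes past the threshold of each companion list. HNRNPD, HNRNPAB and MBNL2 were added after their values were seen.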

Additional observations from a re-analysis of the deposited data

How the results depend on the processing

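Of the 33 tested SRSF and HNRNP genes, limma-voom on recovered reads, an alternative chosen after seeing the data, kept direction and side of the threshold for all 33, quantile normalization for 31, a pseudocount of 0.1 for 32, a filter at a mean of 5 FPKM for 31 of 32 and no filter for 26. Over all genes, no filter gave 1681 higher and 1626 lower calls and the filter at 5 FPKM gave 1639 and 1564, against 2525 and 2682. With no filter 0 SRSF genes were higher and 0 lower and 2 HNRNP genes were lower, and calls numbered 5 of SR-related proteins, 5 of hnRNPs under other symbols and 5 of core snRNP proteins. With the filter at 5 FPKM cell-type-restricted regulators had 4 calls. Removing the GC and length trend gave 3 SRSF genes higher and 1 lower, 4 HNRNP genes higher and 3 lower, and a log2 HNRNPDL to HNRNPD ratio of −0.80. It turned the sign of 11 genes, to 0.24 for SRSF3, 0.014 for SRSF9, 0.046 for SRSF11, 0.051 for HNRNPK, −0.087 for HNRNPM, 0.25 for HNRNPA3, 0.28 for HNRNPD, 0.042 for HNRNPU, 0.015 for HNRNPH2, 0.12 for HNRNPA0 and 0.031 for HNRNPR, and these differences were the same with the replicate block added. The cause was not tested.

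Libraries with the same number did not deviate together (correlations −0.07, −0.18 and −0.35), so the numbers were not taken as pairs. With the replicate block 0 SRSF genes were higher and 1 lower, SR-related proteins had 6 calls and core snRNP proteins 6. With the replicate block and the trend correction together 3 SRSF genes were higher and 0 lower, 2 HNRNP genes higher and 1 lower, and hnRNPs under other symbols had 4 calls and core snRNP proteins 5.

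Leaving out 1 library at a time gave 1853 to 2657 higher and 1936 to 2715 lower calls over all genes, 0 to 2 SRSF genes higher and 1 to 3 lower, 0 to 1 HNRNP genes higher and 4 to 6 lower. Calls numbered 6 to 10 for SR-related proteins, 5 to 9 for hnRNPs under other symbols, 6 to 7 for cell-type-restricted regulators and 6 to 13 for core snRNP proteins. The sign turned within the range for SRSF3 (−0.060 to 0.076), SRSF9 (−0.29 to 0.094), HNRNPM (−0.013 to 0.072), HNRNPD (−0.18 to 0.049), HNRNPUL1 (−0.18 to 0.020), HNRNPA0 (−0.15 to 0.0098) and HNRNPLL (−0.063 to 0.084), none of which was past the threshold with all libraries. The planned edgeR and DESeq2 analyses were not run, since the deposited unit is FPKM. Each value of a tested SRSF or HNRNP gene rests on 75 to 19950 reads. At this depth a count of 0, as for the HNRNPCL genes, allows a level of up to 3 reads, and SRSF12 had 0 to 3 reads per library.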

Other observations

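The order of the levels depends on which length stands for a gene. Divided by the length of the longest coding transcript in place of all annotated exons, an alternative chosen after seeing the data, the WT level of HNRNPA2B1 came to 275.3, that of HNRNPK to 264.5 and that of HNRNPA1 to 233.2 on the scale of FPKM, so that HNRNPA1 was in place 3 and not 1. HNRNPU moved from place 17 to place 9, at 124.8, its longest coding transcript being 6858 bases. SRSF2 moved from place 7 to place 14. Differences between the genotypes are not touched by this choice, apart from the constant added before the logarithm.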
